A study of Mus musculus with 17 samples.

Results

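The 10 genes described here encode transcription factors that can drive the epithelial to mesenchymal transition (EMT): Snai1, Snai2, Zeb1, Zeb2, Twist1, Twist2, Prrx1, Foxc1, Foxc2 and Tcf4. They were chosen by name, with earlier results of these data known, and all 10 were found among the 55450 genes of the bulk table. The cultures were grown from 10 female FVB/NJ mice carrying MMTV-PyMT, in which a mammary promoter drives the polyoma middle T oncogene, so every group shared this transgene. Cells came from the mammary fat pad (MFP) primary tumor, the lymph node (LN), the bone marrow (BM) and the lung, were passaged for about a month, and those of LN, BM and lung were sorted into EpCAMhigh CD44low and EpCAMhigh CD44high cells, whereas MFP carries no CD44 status in the labels. Bulk RNA-seq covered 7 groups with 2 libraries each, and per the methods the 2 libraries were clonal isolates from different mice. Single-cell RNA-seq covered lung-derived CD44low (lungL), lung-derived CD44high (lungH) and LN-derived CD44high (lymphH) cells. The methods speak of replicates for the single cells, and 1 count matrix of each kind was analysed here as 1 library.

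EMT factors switch off genes of epithelial junctions and keratins and switch on genes of motile, matrix-producing cells. SNAI and ZEB proteins are zinc finger repressors that bind E-box DNA, TWIST proteins and TCF4 are basic helix-loop-helix proteins, PRRX1 is a homeodomain protein, and FOXC1 and FOXC2 are forkhead proteins. The same factors shape neural crest and mesoderm in the embryo and are active in normal fibroblasts, and in mammary tumors they are studied as drivers of invasion and of drug tolerance.

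The E-box that SNAI and ZEB proteins bind is CAGGTG, which reads CACCTG on the other strand. Promoter sequences were taken from RefSeq on GRCm38.p6, and the 250 bases before the start are printed 5′ to 3′ with each match in capitals. Snai1 is shown because it was the only one of 6 matched members with a match, at chr2:167537945-167538194 (plus strand). Epcam, the adhesion molecule used for the sort, is at chr17:87635729-87635978 (plus strand). Cldn4, a tight junction claudin, is at chr5:134946935-134947184 (minus strand). Rab25, a vesicle-trafficking GTPase of epithelia, is at chr3:88548280-88548529 (minus strand).
Snai1: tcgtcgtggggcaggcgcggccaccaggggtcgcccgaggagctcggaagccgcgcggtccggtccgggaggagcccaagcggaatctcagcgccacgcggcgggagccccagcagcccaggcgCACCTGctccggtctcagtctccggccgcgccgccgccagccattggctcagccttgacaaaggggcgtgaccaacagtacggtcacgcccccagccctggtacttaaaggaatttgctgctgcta
Epcam: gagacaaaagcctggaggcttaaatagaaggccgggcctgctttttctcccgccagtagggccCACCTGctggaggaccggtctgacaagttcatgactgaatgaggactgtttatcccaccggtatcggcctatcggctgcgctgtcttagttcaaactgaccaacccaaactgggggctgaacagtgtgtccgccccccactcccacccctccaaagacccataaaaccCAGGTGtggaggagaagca
Cldn4: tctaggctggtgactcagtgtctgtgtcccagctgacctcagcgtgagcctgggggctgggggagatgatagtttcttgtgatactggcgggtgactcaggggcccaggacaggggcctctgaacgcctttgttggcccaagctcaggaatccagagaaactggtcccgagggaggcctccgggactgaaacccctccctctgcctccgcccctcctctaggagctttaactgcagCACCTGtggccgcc
Rab25: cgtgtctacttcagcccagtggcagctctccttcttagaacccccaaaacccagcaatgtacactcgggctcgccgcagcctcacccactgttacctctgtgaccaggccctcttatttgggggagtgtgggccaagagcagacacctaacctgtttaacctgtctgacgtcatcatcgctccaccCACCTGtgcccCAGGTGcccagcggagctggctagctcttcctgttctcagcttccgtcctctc
The match of Snai1 began 126 bases before its start, those of Epcam 187 and 19 bases before, that of Cldn4 14 bases before, and those of Rab25 64 and 53 bases before. In windows that also hold the 50 bases after the start, 16 of 21 windows of 15 epithelial target genes held a match, against 20.2% of all 32851 windows. Only 15 of the 25 listed epithelial targets had a window, too few for a statement about the list. A match describes letters and is not a measured binding site.

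The bulk values are TPM, a transcript abundance that corrects for gene length and library total, and 11508 to 13052 genes per library reached at least 1 TPM. Since TPM holds no read depth, no counting interval is given for bulk values, and an exact 0 is given as listed. The sort is on surface protein: Cd44 transcripts lay between 43.8 and 74.9 TPM in BM CD44low and between 49 and 50.5 TPM in BM CD44high cells, and in LN they were lower in both CD44high libraries than in both CD44low libraries. In the lung they were 12.2 and 21.6 TPM in CD44low and 21.95 and 12.1 TPM in CD44high cells, and these overlapped. The labelled EpCAMhigh state was not seen at the transcript level in the lung. Epcam was listed at 0 in both lung-derived CD44low libraries and was 0.23 and 0.86 TPM in the CD44high libraries, against 315 to 941 TPM in LN, BM and MFP. Of 9 fibroblast markers, 8 reached 5 TPM in both lung-derived CD44low libraries, with a summed level of 4708 to 5117 TPM there, 85.7 to 195 TPM in lung-derived CD44high, 3.51 to 19.9 TPM in LN and BM and 0.48 to 1.27 TPM in MFP cells. The 6 epithelial markers summed to 1.64 to 2.2, 15.7 to 87.5, 1389 to 3727 and 5251 to 6131 TPM in these groups, in the same order. The 5 macrophage markers summed to 39.1 to 39.2 TPM in lung-derived CD44low cells and 2.28 to 23.4 TPM elsewhere. The 5 myoepithelial or basal markers summed to 659 to 713 TPM in lung-derived CD44low, 39.5 to 52.8 TPM in lung-derived CD44high, 12.8 to 62.7 TPM in LN and BM and 594 to 655 TPM in MFP cells. In lung-derived CD44low cells nearly all of that sum was Acta2, a smooth muscle actin, at 657 and 711 TPM with Krt14 listed at 0, whereas in MFP it was Krt14. The 5 cycling markers summed to 3.35 to 51.7 TPM in the lung and 464 to 4852 TPM in the other groups. Summed endothelial, adipocyte and lymphocyte markers stayed at or below 0.21 TPM in every library. The part of other cell types in the results below was not tested. In bulk cultures, a change in the share of cells that express a gene and a change in the RNA per cell cannot be told apart.

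Calls come from limma, fitted over the 15348 genes that reached 1 TPM in 2 or more libraries. A member was called changed where its log2 fold change was over 2 in size and its p, adjusted by Benjamini-Hochberg over those genes, was under 0.05. All 10 members passed this filter, but Twist2 passed only through the 2 lung-derived CD44low libraries and had to be higher there. All fold changes are differences of log2(TPM + 1), a scale that understates the change of low genes, and the value after ± is the standard error. The 6 comparisons with MFP share the same 2 MFP libraries, so their results are not independent.

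Prrx1, a homeobox factor of limb and craniofacial mesenchyme, was near 0 in the primary tumor cells and present in every LN, BM and lung group. Its gene lies at chr1:163245119-163313710 (mm10, minus strand). It was 0.1 and 0.02 TPM in MFP. In the LN it was 24.1 and 8.11 TPM in CD44low and 12.4 and 13.4 TPM in CD44high cells, and in BM it was 7.73 and 12.9 TPM in CD44low and 8.35 and 8.89 TPM in CD44high cells. In the lung it was 64.6 and 78.6 TPM in CD44low and 9.69 and 9.5 TPM in CD44high cells. All 12 libraries of LN, BM and lung thus lay above both MFP libraries, and the lung-derived CD44low cells stood above the rest. These cells also held the high fibroblast markers given above, whose part in the Prrx1 level was not tested. Against MFP the log2 fold change was 6.09 ± 0.42 in lung-derived CD44low cells (limma adjusted p = 1.85e-06), and 3.18 to 3.84 in the other 5 groups (adjusted p between 0.000206 and 0.000481). Only 53 of the 15348 genes were called higher than MFP in all 6 groups, and Prrx1 was the single member among them. No other member was called in the same direction in more than 4.

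**Figure D1:**
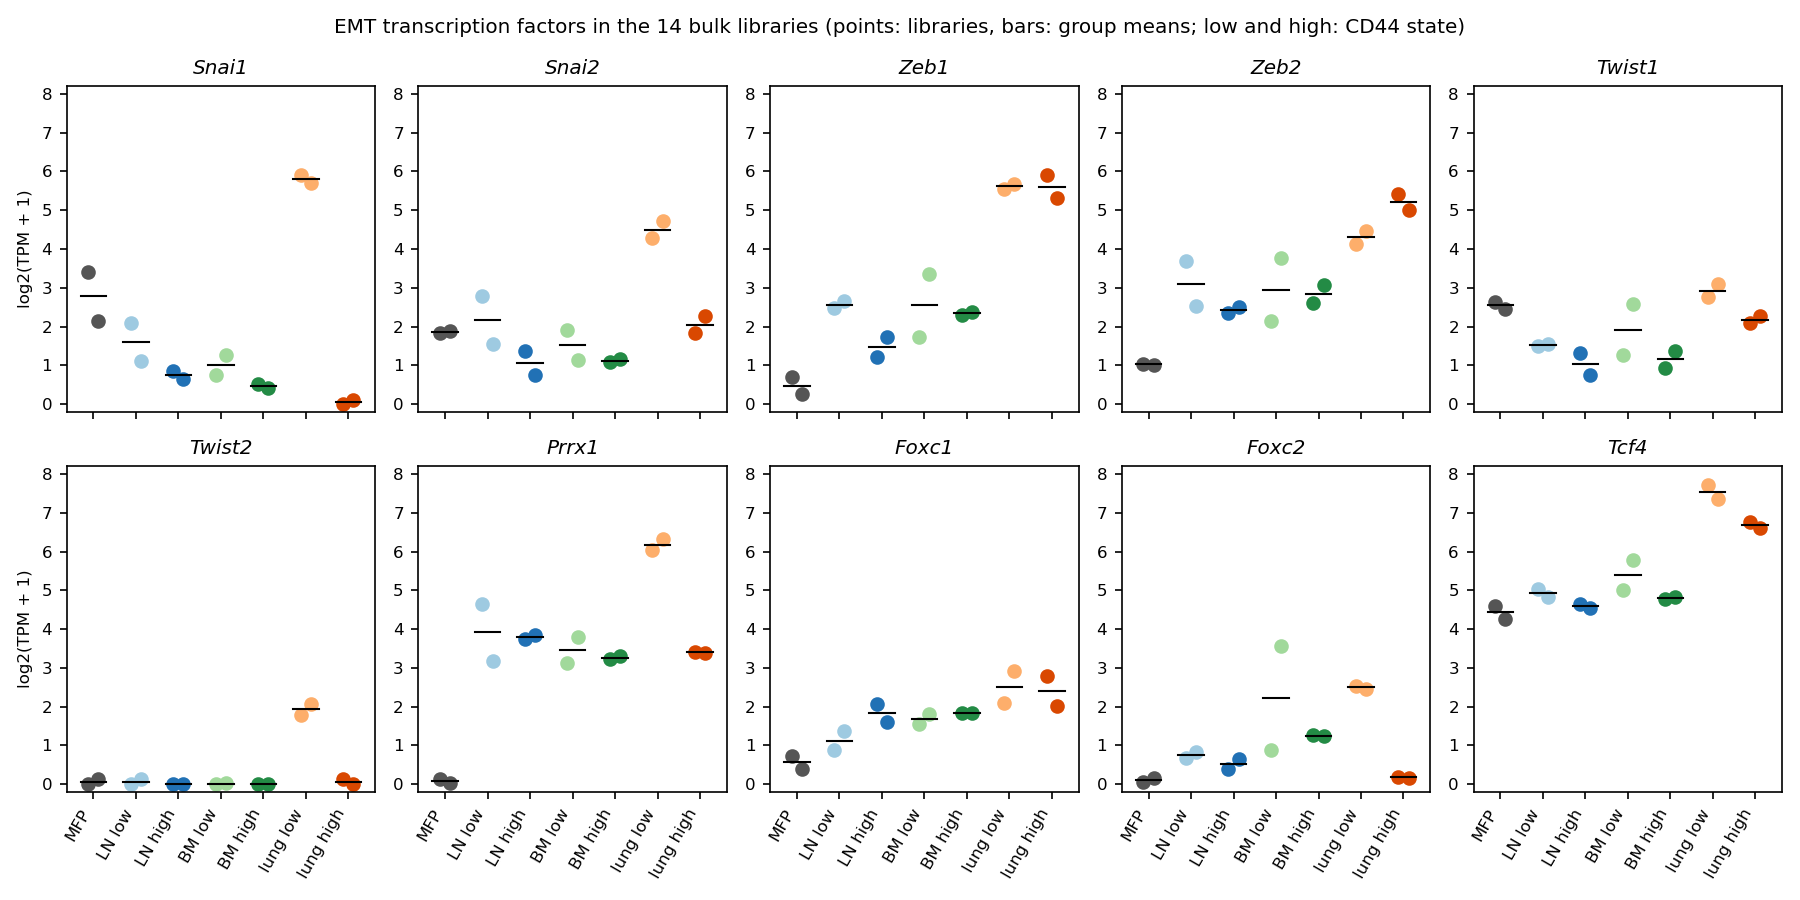
Level of each of the 10 factors in the 14 bulk libraries, as log2(TPM + 1), by group. Points are the 2 libraries of a group and bars their mean. The lung-derived CD44low cells hold the highest mean of Snai1, Snai2, Twist1, Twist2, Prrx1, Foxc1, Foxc2 and Tcf4 on this scale, whereas Zeb2 is highest in lung-derived CD44high cells and the Zeb1 means of the lung groups differ by -0.01 (CD44high minus CD44low).

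Snai1, a zinc finger repressor of Cdh1, had the largest difference of any member between the 2 sorted states of the lung. Its gene lies at chr2:167538195-167542814 (mm10, plus strand), directly after the promoter printed above. It was 58.4 and 50.6 TPM in lung-derived CD44low cells, and listed at 0 and 0.07 TPM in lung-derived CD44high cells. MFP had 9.67 and 3.44 TPM. LN-derived cells had 3.29 and 1.16 TPM in the CD44low and 0.81 and 0.58 TPM in the CD44high state, and BM-derived cells had 0.68 and 1.39 TPM and 0.42 and 0.34 TPM. No library of another group reached the lung-derived CD44low pair, and the lung-derived CD44high pair was below all others. Snai1 rose by 3.01 ± 0.44 against MFP in lung-derived CD44low cells (limma adjusted p = 0.000397). It fell by 2.73 ± 0.44 in lung-derived CD44high (limma adjusted p = 0.000967), by 2.03 ± 0.44 in LN-derived CD44high (0.00865) and by 2.32 ± 0.44 in BM-derived CD44high cells (0.00392). The last 2 calls were lost when the higher MFP library, replicate 1, was left out (log2 fold changes of -1.39 and -1.69), and under median-ratio scaling. The LN call was also lost without replicate 2 of LN-derived CD44high cells.

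Snai2, a related repressor of basal mammary cells, had 18.3 and 25.5 TPM in lung-derived CD44low cells. Elsewhere it ranged from 0.69 to 5.95 TPM, with MFP at 2.58 and 2.71 TPM and lung-derived CD44high cells at 2.54 and 3.84 TPM. Below the lung-derived CD44low pair, each group overlapped with the next one in the order of means. Against MFP, Snai2 rose only in lung-derived CD44low cells, by 2.64 ± 0.45 (limma adjusted p = 0.00101). In the other 5 groups its log2 fold change lay between -0.80 and 0.31.

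Zeb1 and Zeb2, the large zinc finger and homeodomain repressors of Cdh1, were high in both sorted states of the lung. Zeb1 was 46.1 and 50 TPM in CD44low and 58.6 and 38.7 TPM in CD44high lung cells, against 0.61 and 0.2 TPM in MFP. LN-derived cells had 4.53 and 5.27 TPM (CD44low) and 1.32 and 2.33 TPM (CD44high), and BM-derived cells 2.34 and 9.25 TPM (CD44low) and 3.94 and 4.19 TPM (CD44high). The 2 lung groups overlapped each other and lay apart from all other libraries. Zeb1 rose against MFP by 5.14 ± 0.47 in CD44low (limma adjusted p = 1.5e-05) and 5.13 ± 0.47 in CD44high lung cells (2.65e-05). It also rose by 2.08 ± 0.47 in LN-derived CD44low (0.0155) and 2.07 ± 0.47 in BM-derived CD44low cells (0.011). The BM call was lost without replicate 2 of BM-derived CD44low cells (1.26) or MFP replicate 2, and the LN call without replicate 2 of LN-derived CD44low cells or either MFP library.

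Zeb2 differed from Zeb1 in that the order within the lung favored the CD44high cells. It was 41.5 and 31.1 TPM in CD44high and 16.6 and 21.2 TPM in CD44low lung cells, and 1.05 and 1.02 TPM in MFP. The LN and BM libraries ranged from 3.4 to 12.5 TPM, all above MFP and below the lung. Zeb2 rose against MFP by 4.18 ± 0.52 in lung-derived CD44high (limma adjusted p = 0.000199), 3.28 ± 0.52 in lung-derived CD44low (0.000688) and 2.08 ± 0.52 in LN-derived CD44low cells (0.0256). The LN call was lost without replicate 1 of LN-derived CD44low cells (1.49) or either MFP library. In BM its log2 fold changes of 1.92 and 1.82 had adjusted p-values of 0.0249 and 0.0277 but did not reach the fold limit. Overlapping short RNAs of the Zeb2 locus, Gm27404 and Gm27645, reached 23.9 and 28.4 TPM in 1 library each and 0 in the others, and reads shared with them cannot be told apart.

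Tcf4, an E-protein that pairs with TWIST and other helix-loop-helix factors, was the most abundant member in every library, taking 37.3% to 59.7% of the summed TPM of the 10 factors in LN, BM and MFP libraries. It was 208 and 163 TPM in lung-derived CD44low and 107 and 96.1 TPM in lung-derived CD44high cells, against 23.2 and 18.3 TPM in MFP. The LN and BM libraries spanned 22.3 to 54.3 TPM, with the highest value in replicate 2 of BM-derived CD44low cells. All 4 lung libraries thus lay above the other 10, and the LN-derived CD44high and MFP groups overlapped. The log2 fold change against MFP was 3.10 ± 0.26 in CD44low (limma adjusted p = 8.67e-06) and 2.24 ± 0.26 in CD44high lung cells (0.000135). No LN or BM group was called, with values between 0.16 and 0.96.

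Twist1 and Twist2, basic helix-loop-helix factors of mesoderm, differed from each other. In MFP Twist1 was 5.25 and 4.47 TPM, against 5.77 and 7.55 TPM in lung-derived CD44low and 3.29 and 3.79 TPM in lung-derived CD44high cells. In LN it ranged from 0.67 to 1.92 TPM and in BM from 0.91 to 4.99 TPM, below MFP in 7 of 8 libraries. It was not called in any comparison with MFP. The nearest were log2 fold changes of -1.52 ± 0.41 in LN-derived CD44high (limma adjusted p = 0.0238) and -1.40 ± 0.41 in BM-derived CD44high cells (0.0307). Twist2 was 2.44 and 3.22 TPM in lung-derived CD44low cells and at most 0.1 TPM in the other 12 libraries, 8 of which listed it at 0. Its log2 fold change of 1.87 ± 0.15 against MFP (limma adjusted p = 5.02e-06) stayed under the fold limit with a pseudocount of 1 and passed it with 0.1.

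The forkhead factors were low. Foxc1, a factor of basal-like breast tumors, was 0.67 and 0.31 TPM in MFP and 3.06 to 6.56 TPM in the 4 lung libraries. LN and BM libraries ranged from 0.84 to 3.16 TPM, overlapping the lowest lung library, and all 12 libraries of LN, BM and lung exceeded both MFP libraries. The log2 fold changes of 1.94 ± 0.37 (limma adjusted p = 0.00216) and 1.84 ± 0.37 (0.00364) in CD44low and CD44high lung cells were under the fold limit. Foxc2, a factor of lymphatic development, was 4.78 and 4.51 TPM in lung-derived CD44low, 0.05 and 0.12 TPM in MFP cells and 0.14 and 0.12 TPM in lung-derived CD44high cells. In LN it ranged from 0.31 to 0.79 TPM, and in BM-derived CD44high cells it was 1.42 and 1.36 TPM. It rose by 2.38 ± 0.64 in lung-derived CD44low cells (limma adjusted p = 0.0127), a call lost when any 1 of the 4 compared libraries was left out. Its call in BM-derived CD44low cells, 2.11 ± 0.64 (limma adjusted p = 0.0393), rested on replicate 2 at 10.9 TPM against 0.83 TPM in replicate 1, and was 0.75 without it. That call held in only 1 of the 14 fits that left out 1 library each. This BM library also stood apart in other genes, such as Tcf3 at 76.3 TPM against 8.2 to 10.8 TPM in the other 3 BM libraries. Foxc2 shares its locus with Gm20388, which was listed between 0 and 8.49 TPM, and reads shared by both cannot be told apart.

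Counted by group, 7 of the 10 members rose against MFP in lung-derived CD44low cells, where 11.2% of all genes tested rose and 7.62% fell. In the CD44high cells of the lung 4 members rose (5.42% of all genes) and Snai1 alone fell (8.03%). Prrx1, Zeb1 and Zeb2 rose in LN-derived CD44low cells (2.07%) and none fell (2.72%), and only Prrx1 rose and Snai1 fell in LN-derived CD44high cells (2.44% and 3.68%). In BM, Prrx1, Zeb1 and Foxc2 rose in CD44low cells (3.99%) and none fell (3.17%), and Prrx1 rose and Snai1 fell in CD44high cells (3.64% and 4.03%). Without replicate 2 of BM-derived CD44low cells or MFP replicate 2, Snai1 was called lower in BM-derived CD44low cells too. Its lowest log2 fold change there with 1 library left out was -2.41. The median log2 fold change of the 10 members was 2.82 and 1.01 in CD44low and CD44high lung cells, beside 0 and -0.04 for all genes, and between 0.28 and 1.03 in LN and BM, beside -0.34 to -0.04. When only the 4 libraries of a comparison were fitted, the 3 calls of LN-derived CD44low cells were lost, as were those of Snai1 in LN- and BM-derived CD44high cells and of Zeb1 and Foxc2 in BM-derived CD44low cells. Dividing TPM by median ratios moved the median fold change of all genes from -0.30 to 0.02 in LN-derived and from -0.34 to 0.04 in BM-derived CD44high cells, and turned the genes called there from 375 higher and 565 lower to 511 and 361, and from 558 and 619 to 730 and 395. The same scaling turned 318 higher and 417 lower genes of LN-derived CD44low cells to 360 and 328, and 612 and 487 of BM-derived CD44low cells to 675 and 357. With this scaling, Zeb2 was also called higher in both BM groups and Zeb1 in BM-derived CD44high cells.

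**Figure D2:**
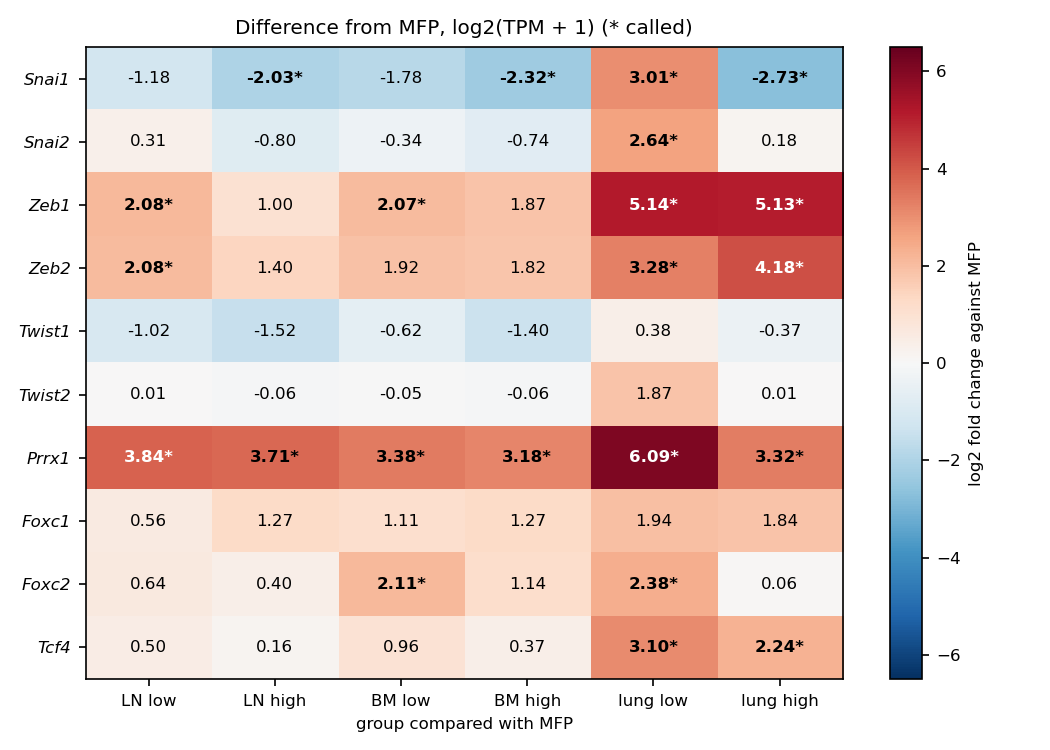
Log2 fold change of each factor in the 6 sorted groups against MFP, on the log2(TPM + 1) scale, with called values marked by an asterisk. Prrx1 is called in all 6 columns, from 3.18 to 6.09, and Snai1 is the only factor called lower.

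CD44high and CD44low cells of the same organ were compared to ask which factors go with the surface state. In the lung, 4 members were lower in CD44high cells, where 8.8% of all genes were called lower and 2.49% higher. Snai1 fell by 5.74 ± 0.44 (limma adjusted p = 5.94e-06), Prrx1 by 2.77 ± 0.42 (0.000785), Snai2 by 2.45 ± 0.45 (0.00242) and Foxc2 by 2.32 ± 0.64 (0.0212). For each of the 4, both CD44low libraries lay above both CD44high libraries. The Foxc2 call was lost without any 1 of the 4 lung libraries. The summed fibroblast markers given above were also lower in CD44high than in CD44low lung cells. So were the summed macrophage markers, mostly through Lyz2 (35.2 and 34.8 TPM in CD44low, 6.15 and 18.5 TPM in CD44high cells). Cd68 overlapped between the states (3.67 and 3.96 against 3.82 and 4.89 TPM). In the single cells the macrophage sum was higher in lungH (0.529 per 10000, 0.438 to 0.634) than in lungL (0.302, 0.234 to 0.383). The part of either cell type in these differences was not tested. Tcf4 was also lower in CD44high lung cells, under the fold limit (-0.86 ± 0.26, limma adjusted p = 0.0335). Twist2 differed by -1.86 ± 0.15, a direction fixed by the filter, as given above, and no result. Zeb1 differed by -0.01 ± 0.47 and Foxc1 by -0.09 ± 0.37, and Zeb2 was the only member with a higher mean log2(TPM + 1) in CD44high cells, by 0.90 ± 0.52 (limma adjusted p = 0.228), joined by Zeb1 (0.0082) under median-ratio scaling.

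No member was called between the CD44 states of LN or of BM, where limma called 0.208% and 0.104% of all genes in either direction. At an unadjusted p under 0.05, 2 members differed in LN and 1 in BM, beside 10.1% and 7.4% of all genes. The log2 differences of the 10 members lay between -1.11 (Snai2) and 0.71 (Foxc1) in LN and between -0.97 (Foxc2) and 0.16 (Foxc1) in BM. In each of these organs 9 of 10 members had the lower mean in CD44high cells, as did 62.3% of all genes in LN and 70.1% in BM. Median-ratio scaling moved the median difference of all genes from -0.13 in LN and -0.20 in BM to 0, and then 8 members were lower in LN and 6 in BM. Without replicate 1 of BM-derived CD44low cells, Foxc2 was called in BM (-2.32).

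Whether the CD44 difference itself differed between organs was tested by an interaction contrast, with an adjusted p under 0.05 as the call. Against LN, 19.5% of all genes and 3 members were called, and against BM 15.3% and 3 members. In both cases these were Snai1, Prrx1 and Twist2. Twist2 passed the filter only through the lung-derived CD44low libraries, so its difference had to be lower in the lung and its calls are no result, which leaves 2 of 9 members, a share near that of all genes. For Snai1 the difference in the lung was lower than that in LN by 4.89 ± 0.62 (limma adjusted p = 0.000387) and than that in BM by 5.20 ± 0.62 (0.000259). For Twist2 it was lower by 1.79 ± 0.21 (0.000204) and 1.85 ± 0.21 (0.000177), and for Prrx1 by 2.65 ± 0.59 (0.0117) and 2.57 ± 0.59 (0.0153). The Prrx1 calls were lost without replicate 2 of lung-derived CD44low cells (limma adjusted p = 0.0525 and 0.0677), and the call against BM also without replicate 2 of BM-derived CD44high cells (0.0529). Snai2 was near the threshold against BM (-2.05 ± 0.63, limma adjusted p = 0.0555), where it was called under median-ratio scaling (-2.14), and had an adjusted p of 0.172 against LN. It was also called against LN without LN-derived CD44low replicate 1 (-1.96, limma adjusted p = 0.0413), and against BM without BM-derived CD44low replicate 1 (0.0302) or either LN-derived CD44low library (0.0224 and 0.0226). Foxc2 was not called, at -1.35 ± 0.90 against BM (limma adjusted p = 0.379), but this value was -2.71 (0.000177) without BM-derived CD44low replicate 2 and -0.00067 without replicate 1. Against LN Foxc2 was -2.08 and was called without either of these BM libraries (limma adjusted p = 0.000423 and 0.000334). Median-ratio scaling turned the genes called from 1370 higher and 1629 lower to 1061 and 1915 against LN, and from 987 and 1360 to 763 and 1542 against BM, with Snai1, Prrx1 and Twist2 called in both.

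**Figure D3:**
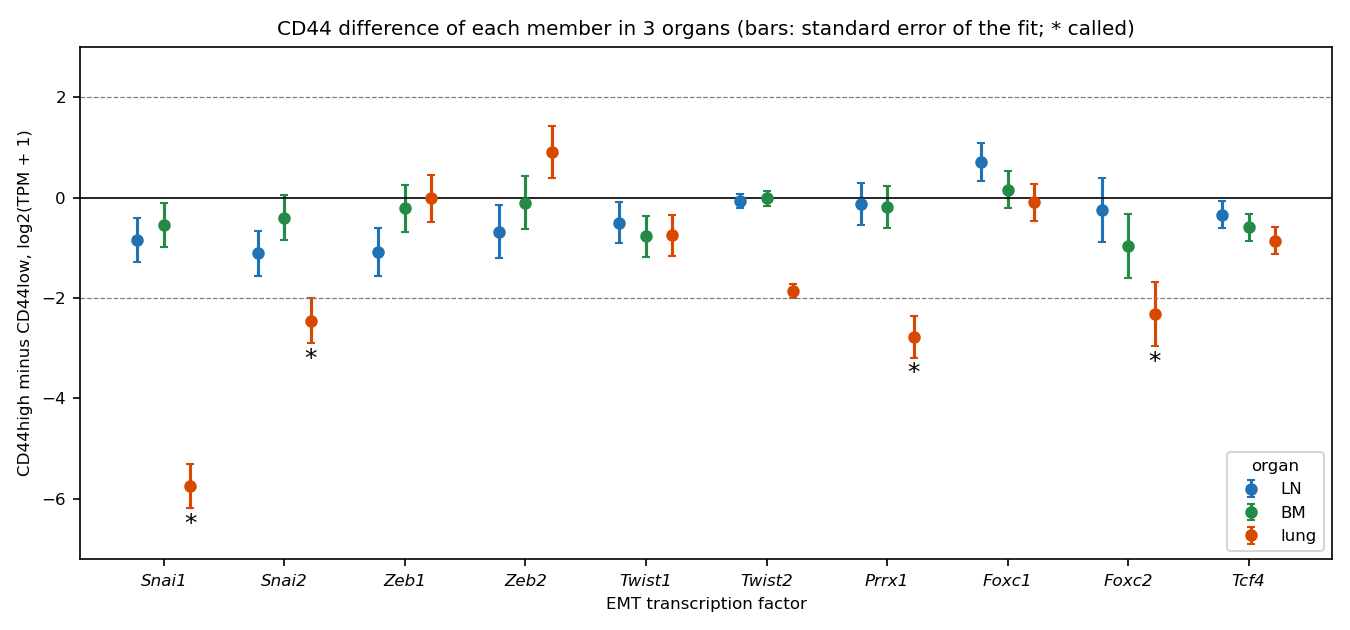
CD44high minus CD44low difference of each factor in LN, BM and lung, on the log2(TPM + 1) scale, with the standard error of the fit, dashed lines at the fold limit and asterisks at called values. The lung values of Snai1, Snai2, Prrx1 and Foxc2 lie below the lower line, and no LN or BM value reaches either line.

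Over the 3 organs together, 6 CD44high and 6 CD44low libraries were compared with organ as a term. limma called 0 members, and 0% of all genes, although 7 members and 19.7% of all genes had an unadjusted p under 0.05. The largest were Snai1 at -2.38 ± 0.75 and Snai2 at -1.32 ± 0.37 (limma adjusted p = 0.233 for both). The exact permutation test within organs gave p = 0.00926 for Snai1 and for Tcf4 (-0.60), the smallest value that its 216 arrangements allow, without adjustment over the 10 members. As the average of the 3 organ differences in the fit of 7 groups, 1 member was called, beside 0.111% of all genes called higher and 0.906% lower. It was Snai1 (-2.38, limma adjusted p = 0.000179).

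Lung-derived cells were compared with LN- and BM-derived cells to describe the organ pattern. Zeb1 was higher by 3.38 ± 0.29 (limma adjusted p = 6.29e-06) and Tcf4 by 2.17 ± 0.16 (2.38e-06), beside 7.13% of all genes called higher and 5.54% lower. Snai1 (1.96 ± 0.27), Zeb2 (1.92 ± 0.32) and Snai2 (1.80 ± 0.27) had adjusted p-values of 0.000158, 0.000551 and 0.000303 under the fold limit, and their mean over the 2 lung states joins unlike levels for Snai1 and Snai2. Foxc2 differed by 0.15 ± 0.39. Under median-ratio scaling the Tcf4 call was lost, and genes called over the whole table changed from 1095 higher and 851 lower to 864 and 1030.

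Across the 14 libraries the members did not move as 1 block. Pearson's r between 2 members ranged from 0.04 to 0.95 over 45 pairs, as a description of libraries that share a group in pairs. It was highest for Zeb1 with Tcf4 (0.947) and with Zeb2 (0.939), and high for Snai1 with Snai2 (0.848). It was near 0 for Snai1 with Zeb2 (0.041) and for Twist1 with Prrx1 (0.058). Twist2 passed the filter only through the lung-derived CD44low libraries. Its r with Snai1 (0.872) and Snai2 (0.893) therefore reflects that pair and is no result. The 10 factors summed to 410 to 429 TPM in lung-derived CD44low, 186 to 228 TPM in lung-derived CD44high, 47.3 to 110 TPM in LN and BM and 30.7 to 43.2 TPM in MFP cells.

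The makeup of that sum differed. Zeb1 and Zeb2 took 20.8% to 25.6% and 16.7% to 18.2% of it in lung-derived CD44high cells, against 10.7% to 12.2% and 3.86% to 5.16% in lung-derived CD44low cells. Snai1 took 11.2% to 22.4% in MFP, 12.3% to 13.6% in lung-derived CD44low and at most 0.038% in lung-derived CD44high cells. Prrx1 took 11.7% to 28.5% in LN and BM and at most 0.232% in MFP.

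For the 8 members that reached 5 TPM in at least 2 libraries, the 3 genes most like the member over the 14 libraries were named, among all genes tested. For Snai1 they were Pear1 (r = 0.977), Gpr180 (0.975) and Ctsf (0.972), and for Snai2 Themis (0.942), Gadd45g (0.939) and Lancl1 (0.939). They were Snx21 (0.973), Gnao1 (0.959) and Kctd7 (0.957) for Zeb1, and Zscan22 (0.953), Slc12a4 (0.952) and 1600002K03Rik (0.95) for Zeb2. Tcf4 was most like Cyp4f17 (0.987), Ehbp1 (0.98) and Crtap (0.978), and Twist1 like Abraxas2 (0.96), Tusc2 (0.958) and Nkapd1 (0.946). The list was Klhl22 (0.957), Zfp287 (0.939) and Pcbp3 (0.934) for Prrx1, and Zfp532 (0.916), Phyhd1 (0.91) and Zcchc24 (0.909) for Foxc1. Under median-ratio scaling all 3 genes stayed for Snai1, Zeb2, Twist1 and Tcf4, 2 for Prrx1 and Foxc1 and 1 for Snai2 and Zeb1.

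Of the 25 epithelial genes listed as targets of these repressors, 23 were tested. In lung-derived cells 21 were called lower than MFP in the CD44low and 20 in the CD44high state, and none higher, where 7.62% and 8.03% of all genes were called lower, with median log2 fold changes of -5.76 and -4.52 beside 0 and -0.04 for all genes. In LN 11 (CD44low) and 8 (CD44high) were called lower, and in BM 7 and 9, with medians between -2.02 and -1.04. Of all genes, 2.72% and 3.68% were called lower in these LN groups and 3.17% and 4.03% in those of BM, with medians between -0.34 and -0.04. Of the 23 targets, 3 (Cldn7, Ovol2 and Mal2) passed the filter only through the MFP libraries, so their direction against MFP is not independent of the filter. Ovol2 was 0.57 and 3.18 TPM in BM-derived CD44low cells and 1.18 and 1.26 TPM in MFP. Cdh1, the E-cadherin gene, was 139 and 159 TPM in MFP, 18.7 to 51.5 TPM in LN and BM, and at most 0.03 TPM in the lung. The log2 fold change of Epcam was -9.61 ± 0.34 in CD44low and -9.01 ± 0.34 in CD44high lung cells (limma adjusted p = 1.89e-08 and 1.07e-07). Cldn7, a claudin, was 428 and 321 TPM in MFP and at most 0.65 TPM in all 12 other libraries, the largest fall of the list in each LN and BM group (-8.02 to -8.37). The keratin Krt8 fell by 11.45 ± 0.72 in lung-derived CD44low cells, and Krt8 (3.75 ± 0.72) and Krt18 (3.23 ± 0.65) were the 2 targets called higher in CD44high than in CD44low lung cells. Krt18 was 10.1 and 58.9 TPM in the lung-derived CD44high libraries, and its difference was 2.02 without replicate 2. Cldn4 and Rab25, whose promoters are printed above, were 469 and 505 TPM and 185 and 258 TPM in MFP, and at most 0.07 TPM in the lung.

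Among 20 mesenchymal genes, lung-derived CD44low cells had 16 above and 1 below MFP (median 5.14), and lung-derived CD44high cells had 7 above and 3 below (0.67). Of all genes, 11.2% rose and 7.62% fell in the first and 5.42% and 8.03% in the second, with medians of 0 and -0.04. Of the 20 genes, 4 (Col1a2, Col3a1, Acta2 and Tagln) passed the filter only through the lung-derived CD44low libraries, so their direction there is not independent of it. Between the lung states, 12 were called lower and 1 higher in CD44high cells (median -4.35), beside 8.8% and 2.49% of all genes (median -0.008). The direction of the 4 genes just named is not independent of the filter here either. Several of these genes are also made by fibroblasts, whose markers differed between the same groups. Vim, the vimentin gene, was 33.5 and 14.5 TPM in MFP and rose in the lung to 1086 and 1215 TPM (CD44low) and 1628 and 2294 TPM (CD44high), with 297 to 762 TPM in LN and BM. Sparc, a matrix protein, had the largest rise of the list in every group (8.37 to 10.2). Acta2 (9.38 ± 0.32) and Lox (8.73 ± 0.31), smooth muscle actin and a collagen cross-linking enzyme, rose in lung-derived CD44low cells, and their CD44high minus CD44low differences in the lung were -8.48 and -8.58. Cdh2, the N-cadherin gene, fell in lung-derived CD44low cells (-3.15 ± 0.56) and was higher in CD44high lung cells (3.74 ± 0.56). Tnc, Mmp14 and Mmp3 were the 3 called lower in lung-derived CD44high cells (-3.48, -3.44 and -3.33). Without MFP replicate 1, which held 31.0 TPM of Tnc and 60.6 TPM of Mmp3 against 4.23 and 3.72 TPM in replicate 2, the Tnc and Mmp3 values were -2.17 and -1.47, and both calls were lost, as they were without either lung-derived CD44high library. Without replicate 1 of lung-derived CD44high cells 4 genes rose there. In LN and BM 4 or 5 genes were called higher per group, beside 2.07% to 3.99% of all genes. Tnc in BM-derived CD44high cells (-3.29) was the 1 called lower, where 2.72% to 4.03% of all genes fell per group. That call was lost without MFP replicate 1 (-1.98) and without either library of its group. It was also lost without any 1 of the LN-derived CD44high or lung libraries.

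**Figure D4:**
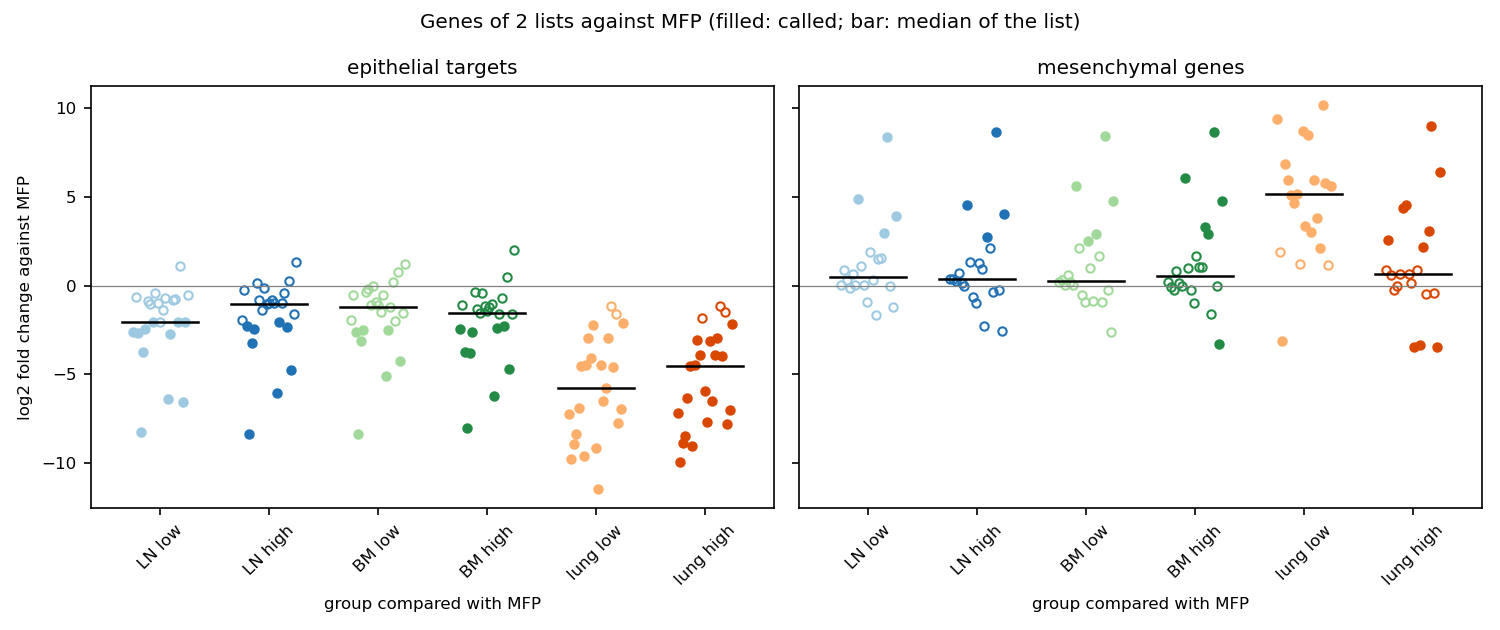
Log2 fold change against MFP of the tested epithelial targets and mesenchymal genes in the 6 sorted groups. Filled points are called genes and bars the medians, which are -5.76 and -4.52 for the epithelial targets in lung-derived cells and 5.14 and 0.67 for the mesenchymal genes there.

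The partners, cofactors and inducers of these factors were counted in the same way, to be read beside the shares of all genes given above. Among 12 tested of 15 other EMT-linked factors, 6 rose and 1 fell in lung-derived CD44low cells (median 1.63), led by Prrx2 (7.59 ± 0.46), a paralog of Prrx1 at 201 and 183 TPM there and at most 3.64 TPM elsewhere. The 6 include Tcf3 and Tcf12, which are counted again among the helix-loop-helix partners below. Prrx2 and Tbx3 passed the filter only through the lung-derived CD44low libraries, so their direction there is not independent of it. Sox4 (3.58) and Tbx3 (3.38) were also higher and Hmga2 fell (-2.17). In lung-derived CD44high cells Fosl1 (-4.58), Hmga2 (-2.66) and Ets1 (-2.15) fell. In each LN and BM group 1 of the 12 rose and 0 or 1 fell, or 2 in BM-derived CD44high cells. The falls of Hmga2 in both lung groups and of Ets1 were lost without MFP replicate 1, that of Hmga2 in CD44low cells also without replicate 1 of that group, and that of Ets1 also without replicate 2 of lung-derived CD44high cells. Without replicate 1 of BM-derived CD44low cells, 5 of the 12 rose there. Of 5 tested of 8 helix-loop-helix partners and inhibitors, Tcf12, Tcf3 and Id3 rose in lung-derived CD44low cells (2.95, 2.23 and 2.63), the first 2 calls being lost without either lung-derived CD44low library and that of Tcf3 also without either MFP library. Id2 rose in LN-derived CD44low cells (2.53, lost without replicate 2 there) and fell in lung-derived CD44high cells (-2.07, lost without replicate 2 there or MFP replicate 2). Id1 and Id3 fell in LN-derived CD44high (-2.58 and -2.31), BM-derived CD44low (-3.01 and -2.47) and BM-derived CD44high cells (-3.14 and -3.20). Id1, an inhibitor of E-proteins, was also lower in CD44high than in CD44low cells of LN (-2.87 ± 0.24, limma adjusted p = 0.000549). Of 10 corepressors, Ctbp1 and Hdac2 rose (3.04 and 3.01) and Suv39h1 fell (-2.51) in lung-derived CD44low cells, Hdac1 and Ctbp2 fell in lung-derived CD44high cells (-2.57 and -2.24), and limma called 0 in LN or BM against MFP, where 0 to 3 per group had an unadjusted p under 0.05. Both of those rises were lost without MFP replicate 1 or either lung-derived CD44low library, and that of Hdac2 also without MFP replicate 2. Without replicate 1 of BM-derived CD44low cells 3 corepressors rose there, and without replicate 2 of BM-derived CD44high cells 1 fell. Replicate 2 of BM-derived CD44low cells held Ctbp1 at 193 and Hdac2 at 105 TPM, against 17.2 and 9.04 TPM in replicate 1. Lung-derived CD44low cells had 141 and 181 TPM of Ctbp1 and 89.4 and 94.3 TPM of Hdac2. Tcf3, Tcf12 and Sox4 were also high in that BM library (76.3, 40.1 and 70.4 TPM, against 10.8, 3.61 and 5.69 TPM in replicate 1). Why these genes rose together in 1 BM library was not tested. None of the 8 genes of the degradation machinery was called against MFP in any group, with medians between -0.44 and -0.01 and 1 to 4 genes per group at an unadjusted p under 0.05. Among 11 genes of TGF-beta signaling, an inducer of several members, Tgfb3 rose in all 6 groups (3.90 to 6.80), and Tgfbr3 (5.49 and 6.65) and Tgfb2 (4.06 and 2.16) rose in both lung groups. The median of the 11 was 1.47 and 1.35 in CD44low and CD44high lung cells, with none called lower there. Of these 11 genes, 3 fell in LN-derived CD44high, 2 in BM-derived CD44low, 3 in BM-derived CD44high and limma called 0 lower in LN-derived CD44low cells, where 4 had an unadjusted p under 0.05 in either direction. Tgfbr1, a TGF-beta receptor, was among them in all 3 groups (-2.43, -2.31 and -2.78), and Inhba, an activin subunit, had the largest fall in BM-derived CD44high cells (-3.15). The first 2 of these Tgfbr1 calls were each lost without either MFP library. They were also lost without replicate 1 of LN-derived CD44high cells (-2.25) and without replicate 1 of BM-derived CD44low cells (-1.86), in that order. Leaving out MFP replicate 1 or LN-derived CD44high replicate 1 left 0 of the 3 falls in LN-derived CD44high cells, and leaving out MFP replicate 1 left 0 of the 2 in BM-derived CD44low cells. The Tgfb2 rise in lung-derived CD44high cells was lost without MFP replicate 1 or replicate 2 of that group.

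In the single cells, counts of the cells with more than 250 genes and under 10% mitochondrial counts were summed per library and given per 10000 with an exact Poisson 95% interval, which covers counting error only. The kept cells were 348 of 2808 barcodes in lungL, 1236 of 3623 in lungH and 2562 of 3297 in lymphH, with medians of 4011, 557 and 585 counts per cell. With 1 library per group there is no test of the groups, and depth differs with the library. Cell columns were numbered without barcodes, and 0 kept cells of different libraries had identical counts.

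Snai1 was counted 65 times in lungL, 1 time in lungH and 4 times in lymphH. These are 0.293 (0.226 to 0.373), 0.0045 (0.00011 to 0.025) and 0.0076 (0.0021 to 0.019) per 10000. The lungL interval lay above both others, and 38 of 348 lungL cells (10.9%, exact 95% interval 7.84% to 14.7%) against 1 of 1236 lungH cells held a count. Cdh1 was counted 0 times in lungL and lungH, which allows up to 0.0135 and 0.0136 per 10000. Col1a2, a fibrillar collagen of fibroblasts, was counted 3192 times in lungL and 0 times in lungH, so that markers of fibroblasts moved with Snai1 here too.

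Prrx1 was also highest in lungL, at 3.96 (3.70 to 4.23) per 10000, against 0.834 (0.758 to 0.916) in lymphH and 0.538 (0.446 to 0.644) in lungH. All 3 intervals lay apart. Snai2 was 0.446 (0.362 to 0.543) in lungL, 0.24 (0.18 to 0.314) in lungH and 0.023 (0.012 to 0.04) in lymphH. Zeb1 was 1.31 (1.16 to 1.47), 0.656 (0.554 to 0.772) and 0.176 (0.142 to 0.215) in the same order. Its lungL and lungH counting intervals lay apart, whereas its bulk overlap was between replicate libraries, which is a different measure. Zeb2 was 0.536 (0.444 to 0.641) in lungL and 0.556 (0.462 to 0.664) in lungH, which overlapped, and 0.235 (0.195 to 0.28) in lymphH.

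Tcf4 and Foxc1 were highest in lungH. Tcf4 was 3.06 (2.84 to 3.30) in lungH, 2.08 (1.90 to 2.28) in lungL and 0.611 (0.546 to 0.681) in lymphH. Foxc1 was 1.83 (1.65 to 2.01) in lungH, 1.27 (1.17 to 1.36) in lymphH and 0.788 (0.676 to 0.914) in lungL. In bulk, Tcf4 was higher in the CD44low cells of the lung and Foxc1 overlapped between its 2 states. Twist1 was 0.77 (0.659 to 0.894) in lungL, 0.579 (0.483 to 0.688) in lungH and 0.357 (0.308 to 0.412) in lymphH. Twist2 was counted 15, 2 and 0 times and Foxc2 24, 7 and 2 times in lungL, lungH and lymphH, and 0 of 2562 lymphH cells with Twist2 allow up to 0.00567 per 10000.

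**Figure D5:**
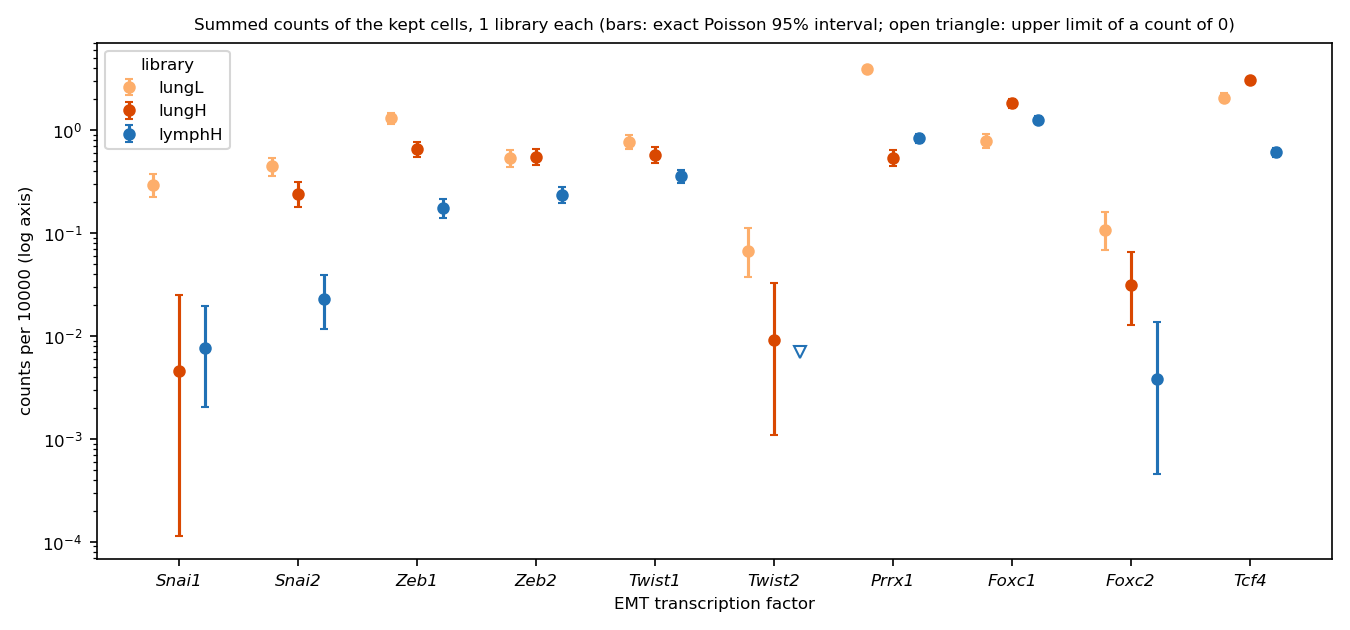
Counts per 10000 of each factor, summed over the kept cells of 1 library each, on a log axis with exact Poisson 95% intervals. The open triangle is the upper end of that interval for a count of 0 (0.0070 for Twist2 in lymphH). It is not the limit of 3 counts used in the text. Snai1 separates lungL at 0.293 from lungH at 0.0045, and Foxc1 and Tcf4 are highest in lungH.

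Within each library, cells with counts of several members were also the deepest cells. In lungL 136 of 348 cells held counts of 3 or more members (median 12418 counts per cell), and 107 cells held none (615). In lungH 76 of 1236 and in lymphH 145 of 2562 cells held 3 or more, with medians of 11113 and 18693 counts against 539 and 563 in cells with none. Thinned to 500 counts per cell, with 314, 948 and 1903 cells left, Prrx1 was counted in 16.2% of lungL, 2.32% of lungH and 2.63% of lymphH cells, against 46.8%, 5.66% and 8.74% unthinned. Thinned Tcf4 was in 8.6% of lungL and 11.5% of lungH cells, against 38.5% and 20.6% unthinned. The thinned intervals, 5.74% to 12.3% and 9.54% to 13.7%, overlapped, so the unthinned order was not kept at equal depth. Thinned Snai1 was in 1.91% of lungL cells, 0% of lungH and 0.053% of lymphH cells.

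Clustering the cells of the 3 libraries gave 9 clusters, each with 84.6% to 100% of its cells from 1 library, so that clusters and libraries could not be told apart. Of the 10 members, only Snai2 and Tcf4 were among the 2000 genes used. The deep clusters, given here as a description, were cluster 1 (143 lungL cells), cluster 2 (254 cells, mostly lungH) and cluster 9 (273 lymphH cells), and they held Prrx1 at 4.83, 0.43 and 0.904 and Snai1 at 0.306, 0.035 and 0.0050 per 10000. In cluster 2, 6 of the 7 Snai1 counts came from its 39 lungL cells and 1 from its 215 lungH cells. Cluster 1 was led by Acta2, Grem1 and Bgn, and held Col1a2 at 15.1 and Epcam at 0 per 10000. In cluster 9 Epcam was 1.82, Cdh1 0.439 and Vim 6.27 per 10000, beside Foxc1 at 1.30 and Zeb1 at 0.204.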

How the data were processed

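The members and all gene lists were chosen with earlier results of these data known. Bulk RNA was measured in 14 libraries: per the methods the authors aligned reads with STAR to mm10 and estimated TPM per gene with RSEM, and deposited the TPM values used here. For single cells, the authors deposited unnormalized counts per gene and cell of 3 libraries, made with kallisto per the labels. Authors' fold changes were not used, 0 columns of unknown samples were left out, and the TPM files hold no read depth per library, for which the methods give only a minimum.

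From TPM, log2(TPM + 1) of 15348 genes (at least 1 TPM in 2 libraries or more) was fitted as 7 group means with limma 3.58.1 in R 4.3.3 (trended eBayes, 7 residual degrees of freedom), and p-values were Benjamini-Hochberg adjusted per comparison. The fit was tested on simulated data. In the comparison across organs, organ was a term and an exact two-sided permutation test within organs was added. Single-cell counts of cells with more than 250 genes and under 10% mitochondrial counts were summed per library, since cells are not replicates. Intervals are exact Poisson or Clopper-Pearson at 95%, cover counting error only, and a count of 0 is read as up to 3 counts. Clusters came from scanpy 1.11.5. Scrublet called 0, 1 and 4 doublets in the 3 libraries, too few to count as a working filter, so none were removed.

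Named were the 10 members, Cdh1, Epcam and Vim, the called genes of each list with the largest rise and fall (up to 3 each way for the lung groups against MFP and between the lung states, 1 otherwise), and the 3 genes most like each member with at least 5 TPM in 2 libraries. Cldn4 and Rab25 were also named for their promoters, and Tcf3, Cd44, Krt14, Lyz2, Cd68, the genes named for how they passed the filter, the 3 genes overlapping Zeb2 or Foxc2 and the cluster genes were chosen after their values were seen. 1 gene that this rule names is not reported here. Alternatives were another pseudocount, low-value filters, median-ratio scaling, a replicate block, other samples in the fit and other thresholds, and for cells other filters, a mean per cell and thinning to 500 counts.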

Additional observations from a re-analysis of the deposited data

Results flagged for a closer look

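The CD44high minus CD44low difference differed between the lung and the other organs for Snai1 and Prrx1, by an interaction contrast in the limma fit of all genes. These are 2 of the 9 members not fixed by the filter, a share near the 19.5% of all genes called against LN and 15.3% against BM. For Snai1 the lung difference minus that of LN was -4.89 on the log2(TPM + 1) scale, and minus that of BM -5.20. The corresponding values were -1.79 and -1.85 for Twist2, and -2.65 and -2.57 for Prrx1. Twist2 passed the filter on low values only through the lung-derived CD44low libraries, so its difference had to be lower in the lung and is no result. The adjusted p-values were 0.000387 and 0.000259 for Snai1 and 0.0117 and 0.0153 for Prrx1, and those of Prrx1 passed 0.05 without replicate 2 of lung-derived CD44low cells, and against BM also without replicate 2 of BM-derived CD44high cells.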

How the results depend on the processing

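The replicate numbers pair nothing that the labels name: deviations of same-numbered libraries correlated between -0.194 and 0.168 over 21 pairs of groups, 3 of them over 0.1, and with the replicate block 110 of 110 member results kept their call and direction. Counts of members called moved over 1.5 times as follows. With a pseudocount of 0.1, the counts were 5 in LN CD44high, 6 in BM CD44low, 6 in BM CD44high and 5 in lung against LN and BM. Median-ratio scaling gave 1 in LN CD44high and 1 in lung against LN and BM. Fitting only the groups compared gave 0 in LN CD44low and 1 each in LN CD44high, BM CD44low and BM CD44high. Without a fold limit the counts were 4, 6 and 6 in LN CD44high, BM CD44low and BM CD44high, and 9 in lung against LN and BM. Across organs, the average of the 3 differences and an unadjusted p, with the fold limit kept, each gave 1. The causes were not tested.

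Uncalled differences near 0 changed sign. With a pseudocount of 0.1, Foxc2 in lung against LN and BM was -0.178. With median-ratio scaling, the CD44 differences were 0.0082 for Zeb1 in lung, 0.0909 for Prrx1 in LN, and 0.0397, 0.0635 and 0.158 for Zeb1, Prrx1 and Zeb2 in BM, and lung minus BM was -0.0315 for Zeb1 and -0.123 for Twist1.

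Leaving out 1 library at a time, 1463 of 1540 member results kept call and direction, 32 lost and 18 gained a call. The counts ranged from 6 to 8 (lung CD44low against MFP), 5 to 6 (lung CD44high), 1 to 3 (LN CD44low), 1 to 2 (LN CD44high), 2 to 4 (BM CD44low), 2 to 2 (BM CD44high), 3 to 4 (lung CD44), 0 to 0 (LN CD44), 0 to 1 (BM CD44), 2 to 4 (lung against LN and BM), 0 to 0 (across organs) and 2 to 4 for each interaction. The steady total of BM CD44high hides a swap. Without MFP replicate 1, the fall of Snai1 there was no longer called (-1.69) and Zeb1 was called higher (2.08). Ranges that crossed 0 against MFP were -0.0622 to 0.0753 for Twist2 and -0.0419 to 0.409 for Snai2 (lung CD44high), -0.0622 to 0.0753 and -0.31 to 0.931 (LN CD44low), -0.0036 to 0.323 for Tcf4 (LN CD44high), and -0.11 to 0.0143, -0.741 to 0.0565 and -1.28 to 0.0349 for Twist2, Snai2 and Twist1 (BM CD44low). Between CD44 states they were -0.305 to 0.282 (Zeb1) and -0.51 to 0.321 (Foxc1) in lung, -0.855 to 0.609 (Prrx1) in LN, and -1.02 to 0.600 (Zeb1), -0.529 to 0.14 (Prrx1), -0.909 to 0.708 (Zeb2) and -2.32 to 0.385 (Foxc2) in BM. The rest were -0.19 to 0.487 (Foxc2, lung against LN and BM), -0.142 to 0.278 (Zeb2, across organs), -0.531 to 0.039 (Twist1, lung minus LN), and, for lung minus BM, -0.612 to 1.01 (Zeb1), -0.634 to 0.685 (Twist1), -0.667 to 0.164 (Foxc1) and -0.659 to 0.133 (Tcf4).

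Of 30 single-cell levels, 28 kept within their interval with more than 500 genes per cell and 30 with each other cell filter, against 15 with a mean per cell; the thinned shares moved for 28 of 30. With 2 libraries per group, and 1 per single-cell group, small differences in the low factors were not detectable.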
